A study of Danio rerio with 8 samples.

Results

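Calpains are calcium-dependent cysteine proteases of the cytosol that cut their substrates at a few sites and so change them instead of degrading them. The best known forms, calpain 1 and calpain 2, pair a large catalytic subunit with a small regulatory subunit, and the protein calpastatin holds them in check. Their substrates include proteins of the cytoskeleton and of cell adhesion, and calpain 3 is the form of skeletal muscle. E64d is a cell-permeable compound of the E-64 class, which reacts with the catalytic cysteine of papain-like proteases such as cathepsins and calpains.

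The zebrafish (Danio rerio) calpain genes described here are 10 entries of a count table of 36109 genes, chosen by name. They comprise 8 genes for catalytic calpain proteins (capn1a, capn1b, capn2a, capn2b, capn2l, capn3a, capn3b and capn5a) and 2 for the small subunit (capns1a and capns1b). The study tested how the inhibitor affects gene expression in the whole embryo. The E64d group was kept in 3 µM E64d between 1 and 24 hours after fertilization, and the DMSO group in the solvent alone, with dimethyl sulfoxide stated as 0.5% for both. Embryos of both groups were wild type of the AB strain, had a small cut in the chorion and lay in medium with PTU, which blocks pigment. Each group had 4 libraries, and each library was made from a pool of 7 embryos, so that replicate error is the spread between pools. RNA abundance was measured, not protease activity.

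Libraries held 29422983 to 37309883 counts. Levels are given as CPM, the counts of a gene per 1000000 counts of the library after TMM scaling in edgeR. They compare a gene between libraries only, since no gene length was used. Markers of skeletal muscle, epidermis, hatching gland, notochord, nervous system, lens, myeloid cells, erythroid cells and the yolk syncytial layer were looked up to check the whole-embryo label. Every marker with an entry had counts in at least 1 library. The myeloid marker marco, with 0 to 10 counts per library, was not tested. Replicate 2 of the DMSO group stood apart: mitochondrial genes took 0.847% of its counts, and between 1.27% and 1.97% elsewhere. For the calpain genes, the rest of the family, calpastatin and the called genes, the value without it is given where its absence moved the log2 fold change by over 1.5 times or ended a call.

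In embryos treated with E64d, transcripts of capn2a, a gene for the large subunit of calpain 2, were lower than in DMSO embryos. The other 9 calpain genes did not pass the test. All 10 genes passed the filter on low counts. The quasi-likelihood test of edgeR was run on 22163 genes, and a gene counted as called at a Benjamini-Hochberg adjusted p under 0.05. It called 1 of the 10 calpain genes, while it called 6.13% of all genes tested (3.85% lower and 2.28% higher in E64d). A share of 1 in 10 genes is near that background. No calpain gene was called higher, also with DESeq2 and with limma-voom, and none had a higher level at an unadjusted p of 0.05. With libraries scaled by their totals alone, 61.7% of all calls were higher in E64d in place of 37.2%, and the call of capn2a did not depend on that choice.

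**Figure D1:**
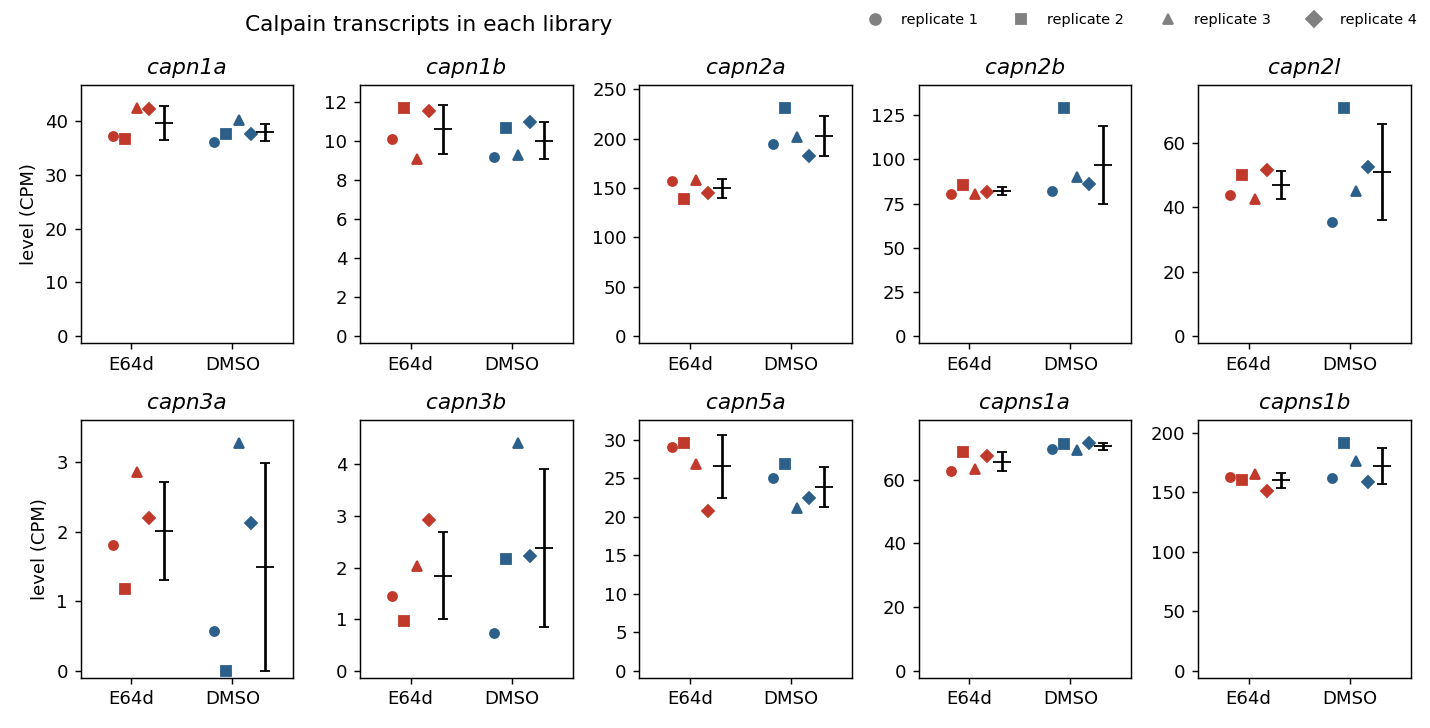
Level of each of the 10 calpain genes in CPM (vertical axis, starting at 0) in the 4 E64d libraries (red) and the 4 DMSO libraries (blue). Symbols mark the replicate number, and the black bar gives the mean with its SD. The E64d values of capn2a all lie under its DMSO values, and replicate 2 of DMSO is the highest of all 8 libraries for capn2a, capn2b, capn2l and capns1b.

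The level of capn2a was 157, 138, 158 and 145 CPM in the E64d libraries 1 to 4. In the DMSO libraries 1 to 4 it was 195, 231, 201 and 183 CPM. The groups did not overlap. The gap between the highest E64d library and the lowest DMSO library was wider than the range of the E64d group. It was narrower than the range of the DMSO group (183 to 231 CPM). capn2a averaged 149.6 ± 9.59 CPM in E64d and 202.6 ± 20.6 CPM in DMSO (SD, n = 4 each). Its log2 fold change was −0.44 ± 0.08 (SE), with a 95% interval of −0.62 to −0.26 (adjusted p = 0.00764 by edgeR). It fell in all 15 alternative analyses, with adjusted p-values between 8.3e-05 and 0.0389. Without DMSO replicate 2 the log2 fold change was −0.36 (adjusted p = 0.00709 by edgeR).

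In whole embryos, fewer cells of a type and less RNA per cell cannot be told apart. Of all genes tested, edgeR called 3.85% lower and 2.28% higher in E64d (6.95% and 4.69% with the replicate number as a block). At an unadjusted p of 0.05, 2526 of the 22163 genes tested were lower and 1901 were higher. Epidermal markers, which include keratin genes, summed to 26590 to 28500 CPM in E64d libraries and 28460 to 34080 CPM in DMSO libraries, and 1 of their 10 genes, the keratin gene cyt1 (named after its values were seen), was called lower (2 with the replicate number as a block). Markers of the yolk syncytial layer, the nucleated layer that feeds yolk to the embryo, summed to 9603 to 12310 CPM in E64d and 13600 to 16000 CPM in DMSO, and 6 of 8 were called lower (8 with the block). Skeletal muscle markers summed to 9357 to 10340 CPM in E64d and 9066 to 11680 CPM in DMSO, with 0 of 10 called by edgeR or DESeq2 (1 lower at an unadjusted p of 0.05, and 1, acta1b, with the block). Hatching gland markers, the enzymes and other genes of the cells that digest the chorion, summed to 2203 to 2253 CPM in E64d and 1955 to 2091 CPM in DMSO, and 1 of 8, cd63, was called higher (4 with the block). At an unadjusted p of 0.05, 4 of them were higher and 1 was lower. The lower one was xbp1 (log2 fold change −0.30, named after its values were seen). Nervous system markers summed to 1200 to 1248 CPM in E64d and 875 to 1163 CPM in DMSO, with 0 of 8 called by edgeR or DESeq2 (1 higher at an unadjusted p of 0.05, and 2 with the block). DMSO replicate 2 gave the lowest DMSO sum of these markers and of yolk syncytial layer markers, and the highest of epidermal markers. There elavl3 stood at 213 CPM and nova2 at 257.5 CPM. In the other DMSO libraries they stood at 307 to 369.5 CPM and 351 to 390 CPM. Both genes were named after their values were seen. By edgeR or DESeq2, 0 of 8 notochord, 0 of 8 lens, 0 of 7 tested myeloid and 0 of 8 erythroid markers were called. At an unadjusted p of 0.05, 1 notochord marker was lower, and with the block 1 erythroid marker was higher. The sums of each of these lists overlapped between the groups. Notochord markers summed to 2297 to 2421 CPM in E64d and 2280 to 3721 CPM in DMSO. The part of any of the tissues in the lower level of capn2a was not tested.

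The other genes for calpain 2 large subunits, capn2b and capn2l, had overlapping groups. capn2b stood at 80.6, 85.35, 80.3 and 81.55 CPM in the E64d libraries and at 81.8, 129, 89.7 and 86.1 CPM in the DMSO libraries. The single high value belonged to DMSO replicate 2, and the remaining DMSO libraries lay within or just above the E64d range. Its log2 fold change was −0.24 ± 0.12 (SE; 95% interval −0.51 to 0.03, adjusted p = 0.316 by edgeR) with that library and −0.06 without it. capn2l stood at 43.7, 50.01, 42.7 and 51.4 CPM in E64d and at 35.3, 70.8, 45.1 and 52.4 CPM in DMSO, where replicate 1 was the lowest and replicate 2 the highest of all 8. For capn2l the log2 fold change was −0.12 ± 0.17 (SE; 95% interval −0.48 to 0.24, adjusted p = 0.765 by edgeR), and 0.09 without DMSO replicate 2.

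The genes for the large subunit of calpain 1 kept close to their DMSO levels. capn1a stood at 37.2, 36.7, 42.5 and 42.4 CPM in the E64d libraries and at 36.25, 37.6, 40.2 and 37.7 CPM in the DMSO libraries. Both groups covered much of the same range, and the 95% interval of the log2 fold change was −0.11 to 0.24 (adjusted p = 0.732 by edgeR). capn1b had 10.1, 11.7, 9.04 and 11.5 CPM in E64d and 9.14, 10.6, 9.24 and 10.96 CPM in DMSO (95% interval −0.20 to 0.37, adjusted p = 0.796 by edgeR). The intervals of capn1a and capn1b both leave out a change as large as that of capn2a in either direction.

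The small subunit genes, whose protein stabilizes the catalytic subunits of calpain 1 and calpain 2, were measured with narrow errors. capns1a stood at 62.8, 68.75, 63.4 and 67.6 CPM in E64d and at 69.6, 71.3, 69.4 and 71.7 CPM in DMSO. All 4 E64d libraries lay below all 4 DMSO libraries, but the log2 fold change was −0.10 ± 0.07 (SE; 95% interval −0.25 to 0.04) and did not pass (adjusted p = 0.436 by edgeR). Groups without overlap occurred in 2 of the 10 calpain genes, capn2a and capns1a, and in 14.4% of all genes tested. capns1b, the other small subunit gene, stood at 163, 161, 165.5 and 151 CPM in E64d and at 162, 192, 176 and 159 CPM in DMSO. Its log2 fold change of −0.10 ± 0.07 (SE) did not pass (95% interval −0.27 to 0.06, adjusted p = 0.499 by edgeR), and it was −0.044 without DMSO replicate 2.

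The calpain 3 genes had the lowest counts and the widest errors of the 10. capn3a, named for the muscle form, had 56, 40, 110 and 67 counts in the E64d libraries and 18, 0, 107 and 70 counts in the DMSO libraries. The count of 0 in DMSO replicate 2 allows a level of up to 0.0874 CPM (3 counts), for counting error only. That limit takes each count as a separate molecule and would be higher if both mates of a pair were counted. The library with the highest capn3a level and the one with the lowest were both DMSO libraries, so the E64d values fell inside the DMSO range. The 95% interval of its log2 fold change ran from −1.25 to 2.11 (adjusted p = 0.823 by edgeR), and the estimate of 0.43 varied widely. It was 0.02 without DMSO replicate 2, 1.16 without DMSO replicate 3, 0.99 with the replicate block and 2.02 with limma-voom, and none of these passed. capn3b, whose zebrafish protein acts with the nucleolar protein Def, stood at 1.46, 0.966, 2.03 and 2.92 CPM in E64d and at 0.728, 2.16, 4.42 and 2.22 CPM in DMSO. Its interval was also wide (−1.39 to 0.65, adjusted p = 0.732 by edgeR), and the estimate of −0.37 was 0.11 without DMSO replicate 3. With this spread between pools, differences inside these intervals could not be told from 0.

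capn5a encodes a calpain without the calcium-binding domain of calpain 1 and calpain 2, and human CAPN5 is known for a role in the retina. It stood at 29.1, 29.7, 26.8 and 20.7 CPM in E64d and at 25.0, 26.9, 21.1 and 22.4 CPM in DMSO. E64d replicates 1 and 2 lay above the DMSO range, while E64d replicate 4 was the lowest of all 8 libraries. The log2 fold change was 0.16 ± 0.12 (SE; 95% interval −0.11 to 0.43, adjusted p = 0.544 by edgeR).

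Summed over the 8 genes for catalytic calpain proteins, the level was 353.9 to 364.6 CPM in E64d libraries and 383.6 to 508.6 CPM in DMSO libraries. Without capn2a the sum of the other 7 was 204 to 216 CPM in E64d and 189 to 277 CPM in DMSO, and the groups overlapped. The sum of both small subunit genes was 219 to 229 CPM in E64d and 230 to 263 CPM in DMSO. These sums are descriptions and were not tested. The median log2 fold change of the 10 genes was −0.10, against 0.01 over all genes tested. Of the 10, 6 had a negative value, as had 10701 of all 22163 genes tested.

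**Figure D2:**
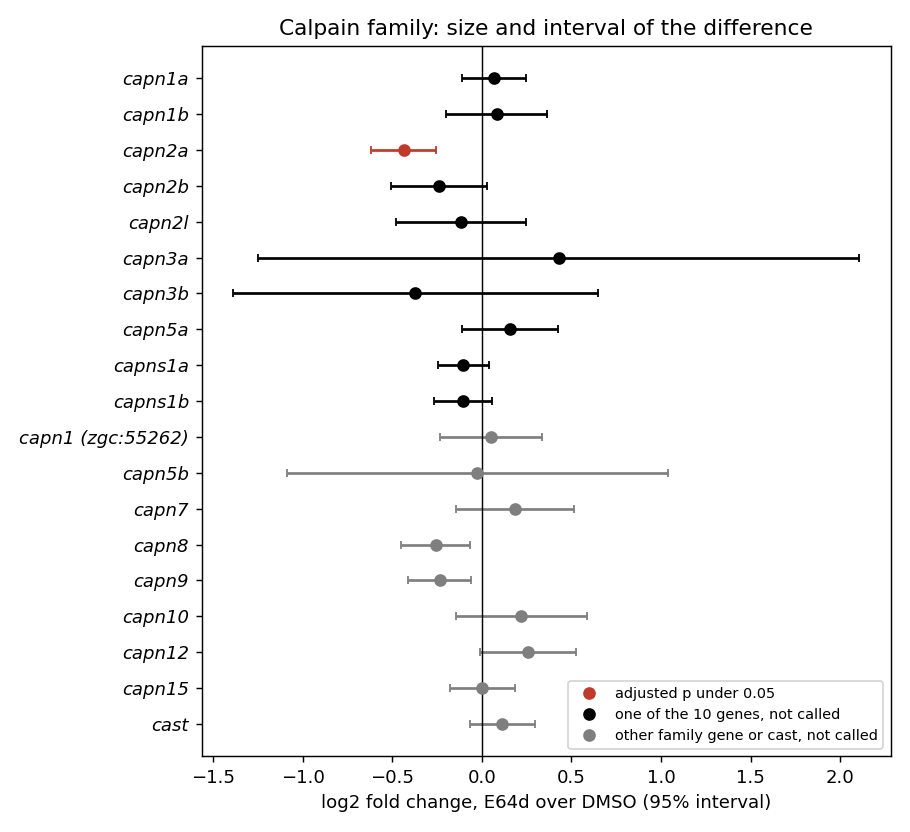
Log2 fold change of E64d over DMSO (horizontal axis) with its 95% interval for the 10 calpain genes (top), 8 other genes of the family and the calpastatin gene cast (bottom). capn2a, in red, was called, and the intervals of capn3a, capn3b and capn5b are the widest of the genes shown.

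In the RefSeq gene order of the assembly GRCz12tu, used for neighbours only, capn2a lies next to capn1a, while capn1b, capn2b, capn8 and capn2l follow each other with no other protein-coding gene between them. Since the strand setting of the counting is not given in the sources used here, reads at the borders of such neighbours, or reads that fit more than 1 copy, could have been assigned to either gene. The ratio of neighbouring or duplicated genes within a library does not depend on the scaling of libraries, and 6 such ratios were set side by side. Each was tested by exact permutation over the libraries (2-sided), where p cannot go below 0.0286. After adjustment over the 6, a single ratio cannot go below 0.172, so these tests could not pass 0.05 for 1 ratio alone, and the values are given as a description. The log2 ratio of capn1a to capn2a counts was −2.07, −1.92, −1.90 and −1.77 in the E64d libraries and −2.43, −2.62, −2.32 and −2.28 in the DMSO libraries. The groups did not overlap, and the mean difference was 0.50 (exact permutation p = 0.0286, adjusted p = 0.172 over the 6 ratios). Between E64d and DMSO libraries of the same number, this ratio was higher in E64d in all 4 pairs, with differences of 0.353 to 0.705. The exact sign-flip permutation p was 0.125, the smallest it can be with 4 pairs. The ratio of capn1a to capn2a was picked with the values of both genes known.

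The ratios of capn2a to its duplicates were set out in the same way. The log2 ratio of capn2a to capn2b averaged 0.87 ± 0.13 in E64d and 1.09 ± 0.18 in DMSO (SD, n = 4 each), with overlapping groups (exact permutation p = 0.114, adjusted p = 0.342). That of capn2a to capn2l averaged 1.67 ± 0.22 in E64d and 2.03 ± 0.35 in DMSO (SD, n = 4 each; exact permutation p = 0.171, adjusted p = 0.342). Between E64d and DMSO libraries of the same number, the ratio to capn2b was lower in E64d in all 4 pairs, with differences of −0.29 to −0.14, and the ratio to capn2l in all 4, with differences of −0.62 to −0.24. With 4 pairs the exact sign-flip permutation p of each was 0.125, the smallest it can be, so whether capn2a differed from either duplicate in response could not be settled by these tests. The ratio of the small subunit genes capns1a and capns1b hardly moved, at −1.29 ± 0.11 in E64d and −1.28 ± 0.13 in DMSO (SD, n = 4 each; exact permutation p = 0.971, adjusted p = 0.971). The ratios of capn1a to capn1b (exact permutation p = 0.943, adjusted p = 0.971) and capn2b to capn2l (exact permutation p = 0.286, adjusted p = 0.429) overlapped as well. Between libraries of the same number, the capn2b to capn2l ratio, which holds no capn2a, was also lower in E64d in all 4 pairs. Its differences were −0.331 to −0.0485 (exact sign-flip permutation p = 0.125).

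**Figure D3:**
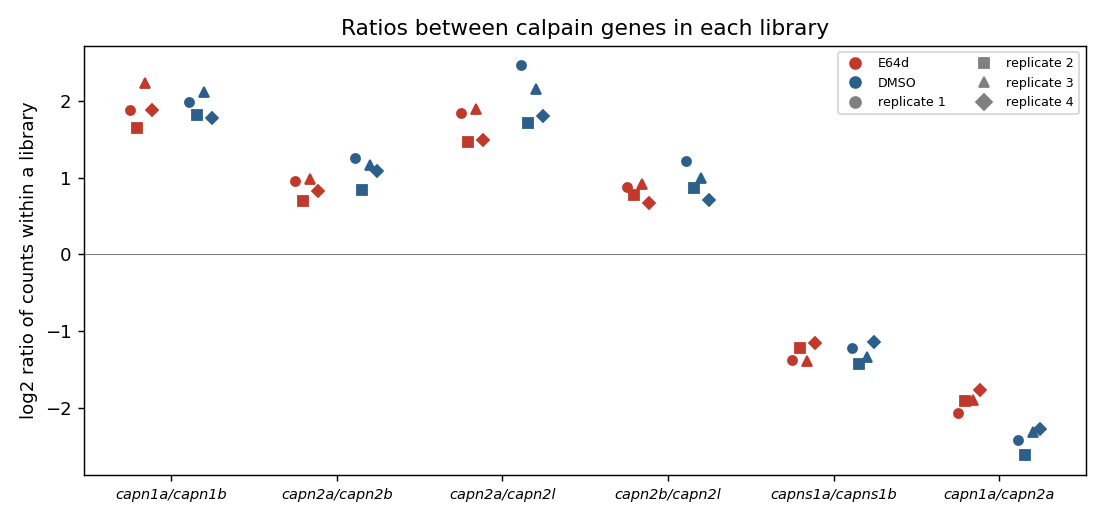
Log2 ratio of counts between pairs of calpain genes within each library (vertical axis) for the 4 E64d libraries (red) and the 4 DMSO libraries (blue), with symbols for the replicate number. The groups are apart for capn1a to capn2a and overlap for the other 5 pairs.

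The genes whose pattern over the 8 libraries was nearest to that of capn2a were mrps33, a mitochondrial ribosomal protein gene, psmd4b, a proteasome subunit gene, and tnpo2, a nuclear import receptor gene. Likeness was measured as the mean absolute difference of centred log2(CPM + 1) values in SD units over 16815 other genes, and it was 0.0332 for mrps33, 0.0529 for psmd4b and 0.0978 for tnpo2. Picked for this likeness, each was, as capn2a was, highest in DMSO replicate 2 and lower in every E64d library than in any DMSO library. mrps33 stood at 12.2, 10.3, 12.3 and 10.7 CPM in E64d and at 15.97, 20.3, 16.7 and 14.7 CPM in DMSO. These values describe the libraries and carry no test.

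**Figure D4:**
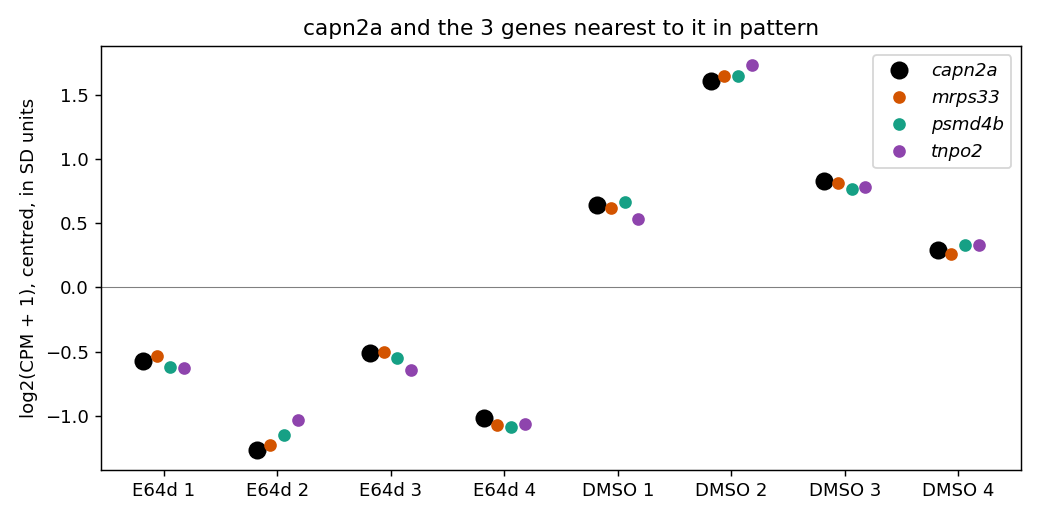
Centred log2(CPM + 1) of capn2a (black) and of mrps33, psmd4b and tnpo2 in SD units (vertical axis) in each library. All values lie under 0 in the 4 E64d libraries and above 0 in the 4 DMSO libraries, with the highest in DMSO replicate 2. The other genes were picked for their likeness to capn2a.

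Calpastatin is the protein inhibitor of calpain 1 and calpain 2, and its gene cast stood at 298, 275, 263 and 284 CPM in E64d and at 277, 225, 245 and 288 CPM in DMSO. The ranges overlapped, and the log2 fold change of 0.11 ± 0.08 (SE) did not pass (95% interval −0.07 to 0.29, adjusted p = 0.512 by edgeR), and it was 0.056 without DMSO replicate 2. Of the other calpain family genes, 8 were tested and 0 were called by edgeR, DESeq2 or limma-voom, while capn8 and capn9 were lower at an unadjusted p of 0.05. Of all 22163 genes tested, 2526 were lower and 1901 higher at that limit. The median log2 fold change of the 8 family genes was 0.03.

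Human CAPN8 and CAPN9 are calpains of the stomach and gut lining. The zebrafish gene capn9 stood at 239.9, 237, 226 and 222 CPM in E64d and at 251, 318, 264 and 256 CPM in DMSO. The groups did not overlap, as in 14.4% of all genes tested. For capn9 the log2 fold change was −0.23 ± 0.08 (SE; adjusted p = 0.115 by edgeR), and −0.15 without DMSO replicate 2 (adjusted p = 0.174 by edgeR). With all libraries it passed with the replicate number as a block (adjusted p = 0.0456 by edgeR), a setting that called 11.6% of all genes (6.95% lower and 4.69% higher in E64d). capn8 stood at 68.9, 62.9, 72.8 and 70.2 CPM in E64d and at 84.9, 84.7, 89.7 and 69.25 CPM in DMSO, where replicate 4 lay within the E64d range (log2 change −0.26 ± 0.09 SE, adjusted p = 0.114 by edgeR). Leaving out DMSO replicate 4 gave it an adjusted p of 0.0345, and leaving out another library one of up to 0.27 (edgeR).

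The remaining family genes overlapped between the groups. capn12 averaged 34.3 ± 4.11 CPM in E64d and 28.7 ± 4.57 CPM in DMSO (SD, n = 4 each; adjusted p = 0.27 by edgeR). capn15, whose fly relative is known as small optic lobes, averaged 30.1 ± 2.25 CPM in E64d and 30.0 ± 0.828 CPM in DMSO (SD, n = 4 each; 95% interval of the log2 fold change −0.18 to 0.18), with a log2 fold change of 0.0022, and 0.021 without DMSO replicate 2. capn7 averaged 13.9 ± 2.12 CPM in E64d and 12.2 ± 2.19 CPM in DMSO (SD, n = 4 each; adjusted p = 0.569 by edgeR), and its log2 fold change was 0.18 with DMSO replicate 2 and 0.083 without it. capn10, related to a human gene first studied in type 2 diabetes, averaged 5.95 ± 0.622 CPM in E64d and 5.12 ± 0.819 CPM in DMSO (SD, n = 4 each; adjusted p = 0.532 by edgeR). The table entry zgc:55262, which RefSeq lists as capn1, a symbol it also gives as an older name of capn1a, averaged 16.1 ± 0.712 CPM in E64d and 15.5 ± 2.85 CPM in DMSO (SD, n = 4 each; adjusted p = 0.881 by edgeR), and its log2 fold change was 0.052 with DMSO replicate 2 and 0.16 without it. capn5b stood under 1 CPM in all libraries, with a log2 fold change of −0.027, and 0.21 without DMSO replicate 2. CAPN14 had 2 to 12 counts in each and was not tested.

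In 3 lists of genes tied to calpain function, 1 of 5, 2 of 27 and 1 of 11 tested genes were called, all lower in E64d. In the list of Def and its nucleolar partners, which belong to the ribosome assembly machinery, 1 of 5 tested genes was called, and it was lower in E64d. Over all genes tested, 3.85% were called lower. mphosph10, a nucleolar protein gene of ribosome assembly, stood at 47.2, 54.6, 57.7 and 48.6 CPM in E64d and at 61.4, 98.8, 74.4 and 67.1 CPM in DMSO, without overlap (log2 change −0.54 ± 0.13 SE, adjusted p = 0.0319 by edgeR). Without DMSO replicate 2 the change was −0.37 (adjusted p = 0.0345 by edgeR). Its call ended without E64d replicates 1, 2 or 4 or DMSO replicate 3 (adjusted p = 0.0884, 0.0642, 0.116 and 0.0735 by edgeR). None of the 5 was called higher by edgeR or DESeq2. At an unadjusted p of 0.05, 0 of the 5 were higher and 4 were lower. Of all 22163 genes tested, 1901 were higher and 2526 lower at that limit. All 5 had a negative log2 fold change, as had 10701 of all genes tested. Groups without overlap occurred in 3 of the 5, and in 14.4% of all genes tested. With the replicate block 4 were lower, and DESeq2 called 3 lower. Both settings called more genes in general. Of all 22163 genes tested, 1540 were lower with the block and 1353 by DESeq2, against 853 in the main test. utp25, the gene of Def, averaged 41.4 ± 3.83 CPM in E64d and 46.4 ± 3.99 CPM in DMSO (SD, n = 4 each; adjusted p = 0.356 by edgeR), and was picked for its role with its values known. Over the list the median was −0.34.

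Of 27 tested genes for cytoskeletal and adhesion proteins, 2 were called lower and 25 were not called. The list holds known calpain substrates such as talins, spectrins and filamins, and its median was 0.03. The share called lower over all genes tested was 3.85% (with the replicate block, 6.95% lower and 4.69% higher). cttn, which encodes the actin-binding protein cortactin, stood at 87.6, 91.9, 78.9 and 79.5 CPM in E64d and at 112, 136, 117 and 90.1 CPM in DMSO, where replicate 4 lay within the E64d range (log2 change −0.43 ± 0.11 SE, adjusted p = 0.0375 by edgeR). Without DMSO replicate 4 it had an adjusted p of 0.00775, and leaving out any other single library ended its call (adjusted p of 0.0677 without DMSO replicate 2, and up to 0.131, by edgeR). marcksb, a gene for an actin-linked substrate of protein kinase C, averaged 639 ± 20.2 CPM in E64d and 760 ± 53.9 CPM in DMSO (SD, n = 4 each; log2 change −0.25 ± 0.07 SE, adjusted p = 0.0475 by edgeR), without overlap. Its call held when DMSO replicate 1 was left out and ended without any other library (adjusted p of 0.0503 without DMSO replicate 2, and up to 0.16, by edgeR). Under library totals alone neither passed (adjusted p = 0.0682 for cttn and 0.133 for marcksb by edgeR). marcksb also missed with size factors of the DESeq2 kind, without a filter and with halved counts (adjusted p = 0.0524, 0.0716 and 0.0557 by edgeR). The talin gene tln1 averaged 232 ± 16.2 CPM in E64d and 227 ± 12.7 CPM in DMSO (SD, n = 4 each), and the spectrin gene sptan1, whose protein is a classic calpain substrate, 610 ± 11.1 CPM in E64d and 606 ± 61.8 CPM in DMSO. Both were named after their values were seen. Groups without overlap occurred in 5 genes of the list, and in 14.4% of all genes tested. They were marcksb and, higher in E64d, cdk5r1a, cdk5r1b, flnca and ptk2aa. The higher ones, also named with their values known, had log2 changes of 1.13, 0.41, 0.35 and 0.24. None was called (adjusted p = 0.0904, 0.0686, 0.119 and 0.141 by edgeR). cdk5r1a averaged only 1.37 CPM in E64d and 0.63 CPM in DMSO. With the replicate block 2 genes of the list were higher and 2 lower, while edgeR without it called none higher (4 at an unadjusted p of 0.05, and 1 by DESeq2). Of all 22163 genes tested, 1901 were higher at that unadjusted limit.

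Among 11 tested sarcomere and membrane repair genes around calpain 3, 1 was called lower and 10 were not called, with a median of 0.07. The share called lower over all genes tested was 3.85% (with the replicate block, 6.95% lower and 4.69% higher). dysf, the gene of dysferlin, which works in the repair of muscle membranes, stood at 89.6, 76.2, 84.9 and 90.7 CPM in E64d and at 121, 96.2, 112 and 102.0 CPM in DMSO, without overlap (log2 change −0.34 ± 0.09 SE, adjusted p = 0.0405 by edgeR). Its call remained without DMSO replicate 2 and ended when any other library was left out or under library totals alone (adjusted p up to 0.147 by edgeR). Titin anchors calpain 3 in the sarcomere, and its gene ttn.1, also picked for its role with its values known, averaged 1383 ± 167 CPM in E64d and 1254 ± 292 CPM in DMSO (SD, n = 4 each; adjusted p = 0.668 by edgeR). With the replicate block 2 genes of this list were higher, where edgeR without the block called none higher (1 at an unadjusted p of 0.05, and 0 by DESeq2). Of all 22163 genes tested, 1901 were higher at that unadjusted limit. Only dysf in this list had groups without overlap, as did 14.4% of all genes tested.

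**Figure D5:**
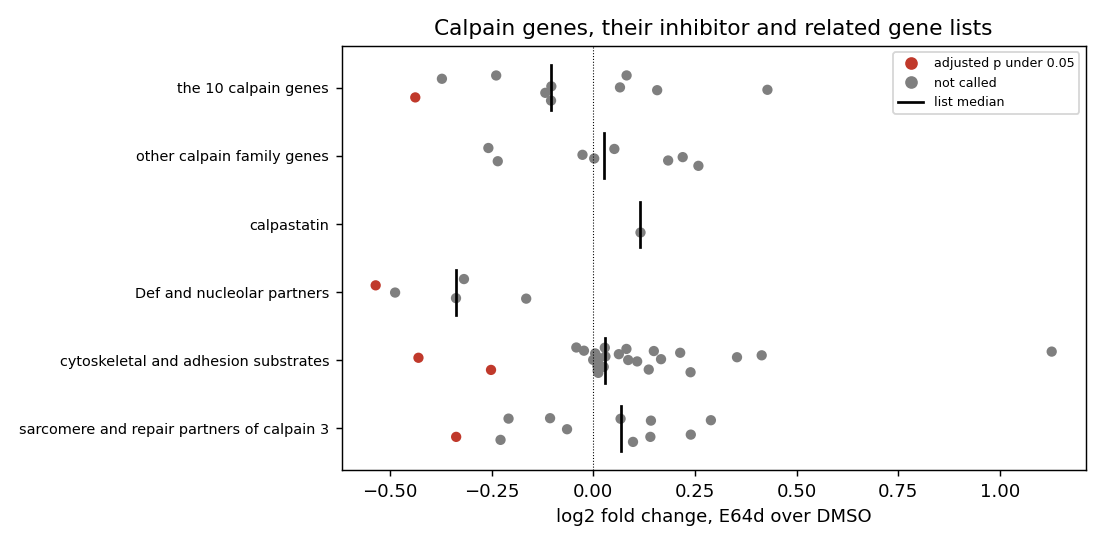
Log2 fold change of E64d over DMSO (horizontal axis) for each tested gene of the calpain genes, the rest of the family, calpastatin and the 3 related lists (rows). Red points were called, black bars are list medians, and all 5 called genes lie on the negative side.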

How the data were processed

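The authors deposited 1 table of raw counts of reads by gene. The submitters' processing notes name featureCounts 2.0.6, STAR 2.7.10b, Trim Galore 0.6.10 and FastQC 0.12.1, and the genome build GRCz11. Not given in the sources used here are the annotation, how strand was treated, and what was done with reads of several matches. Columns were matched to samples by the names in the labels, and a further 6 that carry no sample name were left out. Among counts from 1 to 20, 75.9% to 80.7% were even, as when both mates of a pair are counted.

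Genes kept by filterByExpr (22163 of 36109) were fitted with edgeR 4.0.16 in R 4.3.3 with TMM scaling, and DESeq2 1.42.0 and limma 3.58.1 (voom) served as alternatives. CPM is computed from these counts. Standard errors come from the test statistic, and 95% intervals use its degrees of freedom. Intervals and floors cover the spread between pools or counting error only. The test was also run on simulated data, and the outcome is not reported here.

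The genes and lists were chosen with earlier results of these data known. Some entries of 1 list are not reported here. All 10 calpain genes and the tested family genes are named, and from each related list up to 2 called genes in each direction with the smallest p. For each called calpain gene the 3 nearest patterns are named, and genes outside this rule are marked or serve as context. Of 146 list entries, 135 matched by name, 1 by letter case, 4 by a RefSeq synonym and 6 did not match. Same-numbered libraries deviated together (r = 0.134 to 0.429 across genes, other pairs −0.25 to 0.104), so the fit with the replicate block is given beside a result where it changes a call. The main test and its adjusted p-values had no block. The pairing rests on the correlations alone, as the labels give the numbers no meaning.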

Additional observations from a re-analysis of the deposited data

Results flagged for a closer look

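In the DMSO group, replicate 2 held 129 CPM of capn2b, while the next highest DMSO library held 89.7 CPM. The gap made up 0.833 of the range of the 4 DMSO libraries, just above Dixon's critical value for 4 samples. There were 20 such groups of 4 examined for the 10 calpain genes, and chance alone flags about 1 in 20. The same library also had the highest level of capn2a, capn2l, capn5a and capns1b among the DMSO libraries.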

How the results depend on the processing

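capn2a was the single calpain gene called in the main test and in all 15 alternatives, and no other member passed in any of them. The number of all genes called was 1359, with 2207 by DESeq2, 2580 with the replicate block, and 655 to 1396 when 1 library was left out. The related lists held 4 called genes, with 2 under library totals alone, 7 by DESeq2, 11 with the replicate block, and 0 to 3 when 1 library was left out. The cause was not tested. Besides capn9, genes of these lists and tissue markers, the replicate block changed no call of a gene described here. Among genes that were not called, the sign of the log2 fold change turned in some settings. For capn5b (−0.03) it was 0.066 under library totals alone, 0.094 with limma-voom, 0.056 with the replicate block and 0.0024 with counts divided by 2. For capn15 (0.0022) it was −0.0028 with limma-voom and −5.7e-05 with the replicate block. When 1 library was left out, it ranged over −0.25 to 0.088 for capn2l, −0.68 to 0.11 for capn3b, −0.051 to 0.16 for zgc:55262, −0.26 to 0.22 for capn5b and −0.042 to 0.046 for capn15. Levels per kilobase were not run, because no gene length of the files was used, and the search of protein sequences for the active site was not run either. Low counts kept CAPN14 out of the test, and the part of depth in those counts was not tested. For the other genes, the part of depth in the width of the intervals was not tested.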
